A study of Mus musculus with 18 samples.

Results

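The 6 mitochondrially encoded genes of respiratory chain complexes III, IV and V were followed across the left ventricle (LV) and right ventricle (RV) of mouse hearts after cold ischemic storage (CIS). They are mt-Cytb of complex III, mt-Co1, mt-Co2 and mt-Co3 of complex IV, and mt-Atp6 and mt-Atp8 of ATP synthase (complex V). They were taken by name from the 34989 genes of the count tables, and all 6 passed the filter on low counts in both ventricles. Hearts of C57B/L6 mice (so spelled in the labels, C57BL/6J in the study's methods), 12 weeks old by the labels and younger by those methods, were flushed with HTK (histidine-tryptophan-ketoglutarate) solution, kept in it on ice for 0, 4 or 8 h, and then perfused ex vivo with Krebs buffer for 1 h before RNA was taken. Each of the 6 groups (LV or RV, at 0, 4 or 8 h) holds 3 libraries of bulk ventricle RNA. The 0 h hearts were flushed and perfused as well, so none of the groups is an untouched heart. The genes were chosen by measured values, namely their estimated counts as a share of all counts in these libraries, so their shares, ratios and fold changes are given as a description, without a test.

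Mitochondrial DNA is transcribed into long precursor RNAs from which most messenger RNAs are released by cutting out the tRNAs between them. The messengers then receive short poly(A) tails and are translated by ribosomes inside the mitochondrion. Their products are core subunits that sit in the inner membrane, and each is joined there by subunits that are made in the cytosol from nuclear genes. Complex III passes electrons to cytochrome c, complex IV passes them on to oxygen, and ATP synthase uses the resulting proton gradient. Cardiac muscle depends on this pathway for nearly all of its ATP, and its cells are densely packed with mitochondria.

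All 6 genes lie on the plus strand of the mitochondrial chromosome (GRCm38, chrM), and the listed transcripts have no introns. The order is mt-Co1 (chrM:5328-6872), mt-Co2 (chrM:7013-7696), mt-Atp8 (chrM:7766-7969), mt-Atp6 (chrM:7927-8607), mt-Co3 (chrM:8607-9390) and mt-Cytb (chrM:14145-15288). The coding regions of mt-Atp8 and mt-Atp6 share 43 bases, and mt-Atp6 and mt-Co3 share 1 base. The shared stretch is printed because its bases belong to both genes, and it is 43 of the 204 bases of mt-Atp8. Capitals mark the first codon of mt-Atp6 and the last codon of mt-Atp8.
mt-Atp8 and mt-Atp6, chrM:7927-7969: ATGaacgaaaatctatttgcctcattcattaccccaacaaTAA

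The 3′ ends of the 6 transcripts are shown because the genes differ there, and the last whole or incomplete codon is in capitals. mt-Co3 (784 bases) and mt-Cytb (1144 bases) each have 1 base, a T, left over after the last whole codon. Such stop codons are completed by the poly(A) tail. The other 4 genes carry a whole TAA.
mt-Co1, chrM:6843-6872: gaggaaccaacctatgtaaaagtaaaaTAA
mt-Co2, chrM:7667-7696: ttcgaaaactgatctgcttcaataattTAA
mt-Atp8, chrM:7940-7969: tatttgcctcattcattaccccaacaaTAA
mt-Atp6, chrM:8578-8607: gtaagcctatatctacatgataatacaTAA
mt-Co3, chrM:9361-9390: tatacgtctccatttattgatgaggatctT
mt-Cytb, chrM:15259-15288: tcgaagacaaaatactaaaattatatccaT

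mt-Co1, mt-Co2, mt-Co3 and mt-Atp6 also have close copies in the nuclear genome, which the count tables list as genes of their own. At 95% identity or more over 95% or more of the copy, mt-Co1 was matched by Gm29216 and Gm13340, mt-Co2 by Gm28661 and Gm13341, mt-Atp6 by Gm10925 and mt-Co3 by Gm28437, while mt-Cytb and mt-Atp8 had no copy that close. Gm29216 (chr1:24615706-24616197, minus strand, an unprocessed pseudogene) is the copy with most counts. It matched positions 1063 to 1545 of mt-Co1 at 99.8% identity over 483 of its 492 bases, with 1 substitution, A1066T, counted from the first base of mt-Co1. Its first 33 bases are printed against mt-Co1 because the letters that separate the pair are there, and capitals mark the bases that differ.
mt-Co1, chrM:6381-6413: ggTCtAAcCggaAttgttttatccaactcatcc
Gm29216, chr1:24616165-24616197 (minus strand): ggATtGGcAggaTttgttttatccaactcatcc

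The libraries held 22552581 to 46236771 estimated counts (median 29981406). The 8 markers listed for ventricular cardiomyocytes (Myh6, Myl2, Myl3, Tnnt2, Tnni3, Actc1, Pln and Ryr2) together took 28402 to 77098 CPM (counts per 1000000), so the libraries carried RNA of heart muscle. The list was not made to tell the LV from the RV. The labels give replicate numbers but do not say that the 3 libraries of a group came from separate animals, and the spread between them may in part be technical.

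The 6 genes held 16.1% to 25.6% of all counts, and their share was highest after 8 h of CIS in both ventricles. In the LV the 3 libraries at 0 h had 17.1%, 17.9% and 20.0% of their counts on these genes. The 3 libraries at 4 h had 19.0%, 18.6% and 17.9%, and the 3 at 8 h had 22.9%, 24.4% and 25.0%. Every LV library at 8 h therefore lay above every LV library at 0 and 4 h, and the means were 18.3% ± 1.5 at 0 h and 24.1% ± 1.1 at 8 h (SD, n = 3). In the RV the shares were 16.1%, 18.2% and 22.7% at 0 h. They were 19.2%, 19.3% and 19.1% at 4 h, and 24.8%, 23.5% and 25.6% at 8 h. The RV groups at 0 and 8 h did not overlap either, but RV replicate 3 at 0 h, with 22.7%, came within 1 percentage point of the lowest RV library at 8 h. The mean share of the RV was 19.0% ± 3.4 at 0 h and 24.6% ± 1.0 at 8 h. At 4 h the shares lay inside the 0 h range in both ventricles. A share of counts is relative, so a larger share of these genes is also a smaller share of all others, and amounts per cell cannot be read from it.

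**Figure D1:**
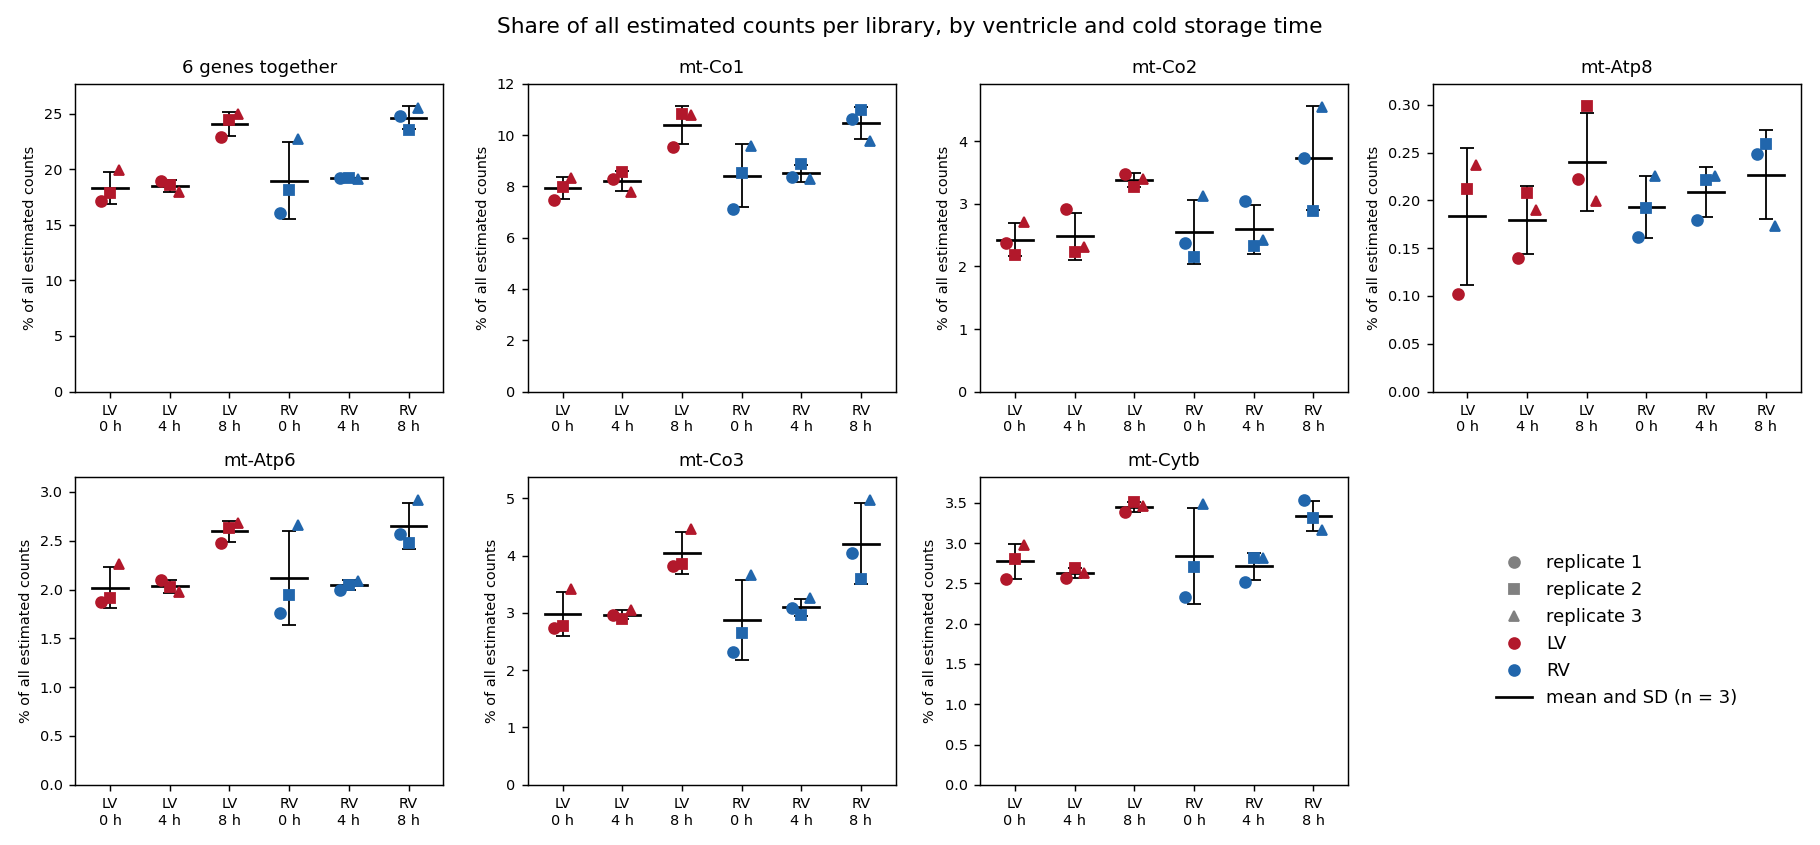
Share of all estimated counts (percent, y axis) held by the 6 genes together and by each of them, for the 3 libraries of each ventricle and storage time; symbols give the replicate number, bars the mean and SD. All libraries at 8 h lie at or above 22.9% for the 6 genes together, and all at 4 h lie at or below 19.3%.

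In the complex IV genes the LV groups at 0 and 8 h were apart for all 3 members. mt-Co1 encodes the catalytic subunit, which holds the site where oxygen is reduced, and took 7.47%, 7.99% and 8.35% of LV counts at 0 h and 9.52%, 10.8% and 10.8% at 8 h. mt-Co2, whose copper center accepts electrons from cytochrome c, took 2.38%, 2.19% and 2.72% at 0 h and 3.49%, 3.27% and 3.40% at 8 h. mt-Co3, the third core subunit, took 2.74%, 2.77% and 3.42% at 0 h and 3.82%, 3.86% and 4.46% at 8 h. LV replicate 3 was the highest of the 0 h libraries for each of these genes, and in no case did it reach the 8 h range. At 4 h mt-Co1 ranged from 7.78% to 8.57%, mt-Co2 from 2.23% to 2.92% and mt-Co3 from 2.89% to 3.05%, each under the lowest 8 h library.

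The RV was less uniform for complex IV. mt-Co1 took 7.12%, 8.54% and 9.58% of RV counts at 0 h and 10.6%, 11.0% and 9.77% at 8 h, so the groups were apart by a narrow margin. mt-Co2 took 2.37%, 2.15% and 3.12% at 0 h and 3.74%, 2.89% and 4.55% at 8 h, and the groups overlapped through replicate 3 at 0 h and replicate 2 at 8 h. mt-Co3 took 2.31%, 2.64% and 3.66% at 0 h and 4.05%, 3.59% and 4.98% at 8 h, with an overlap of the same 2 libraries. In RV replicate 3 at 8 h mt-Co1 was the lowest of its group while mt-Co2 and mt-Co3 were the highest.

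mt-Cytb, which encodes cytochrome b, the part of complex III where ubiquinol is oxidized, was apart in the LV, with 2.55%, 2.80% and 2.97% at 0 h and 3.39%, 3.51% and 3.47% at 8 h. RV shares of mt-Cytb were 2.33%, 2.70% and 3.49% at 0 h and 3.54%, 3.31% and 3.17% at 8 h. Here replicate 3 had the highest mt-Cytb share of the 0 h group and the lowest of the 8 h group, and the groups overlapped.

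mt-Atp6, the membrane subunit that forms the proton path of ATP synthase, took 1.88%, 1.92% and 2.26% of LV counts at 0 h and 2.48%, 2.64% and 2.68% at 8 h. In the RV mt-Atp6 took 1.76%, 1.94% and 2.66% at 0 h and 2.57%, 2.47% and 2.92% at 8 h. The LV groups were apart, and the RV groups overlapped through replicate 3 at 0 h. mt-Atp8, a small subunit that joins the membrane part to the stalk, was the one gene whose LV groups overlapped, with 0.102%, 0.212% and 0.237% at 0 h and 0.223%, 0.298% and 0.199% at 8 h. Its RV values were 0.162%, 0.192% and 0.226% at 0 h and 0.248%, 0.259% and 0.173% at 8 h, and these overlapped too.

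Counted over the 6 genes, every 8 h library lay above every 0 h library for 5 genes in the LV, where 9.42% of all 14564 genes tested did so, and for 1 gene (mt-Co1) in the RV, where 12.2% of 14622 did. Against 4 h the counts were 5 genes in the LV (background 3.78%) and 4 in the RV (background 3.75%), and at 4 h against 0 h no gene was apart in either ventricle (backgrounds 8.96% and 9.92%). The same shares were used to choose the genes, and nothing is read from the counts.

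In edgeR's quasi-likelihood fits, which compare TMM-scaled counts over all genes, the log2 fold changes of the 6 genes at 8 h against 0 h ran from 0.47 to 0.63 in the LV and from 0.46 to 0.77 in the RV. In the LV mt-Co2 stood at 0.63 ± 0.14 (SE), mt-Co3 at 0.60 ± 0.14, mt-Co1 at 0.55 ± 0.11, mt-Atp8 at 0.55 ± 0.29, mt-Atp6 at 0.52 ± 0.12 and mt-Cytb at 0.47 ± 0.10. In the RV mt-Co3 stood at 0.77 ± 0.26, mt-Co2 at 0.77 ± 0.27, mt-Atp6 at 0.55 ± 0.24, mt-Co1 at 0.54 ± 0.22, mt-Cytb at 0.46 ± 0.23 and mt-Atp8 at 0.46 ± 0.23. The standard errors of 5 of the 6 genes were about 2-fold larger in the RV than in the LV, and that of mt-Atp8 was not. At the study's limits, a fold over 1.5 with an adjusted p (Benjamini-Hochberg) under 0.1, mt-Co2 and mt-Co3 were called higher in each ventricle. Over all genes the same limits called 5.46% higher and 1.26% lower in the LV, and 13.0% higher and 5.26% lower in the RV. The limits used the contrast by which the genes were chosen, so these 2 of 6 are a description. Of the other 4 genes, the highest fold was 1.46 in the LV and 1.46 in the RV, just under the limit of 1.5, and mt-Co3 in the LV, at 1.52, was just above it. With all 18 libraries in 1 model, or without LV replicate 1 or 2 at 0 h or LV replicate 3 at 8 h, none of the 6 genes was called in the LV, and without LV replicate 1 at 8 h 4 were. Without RV replicate 1 or 2 at 0 h, any 1 RV library at 4 h or RV replicate 1 at 8 h none was called in the RV, and without RV replicate 3 at 8 h 1 was.

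**Figure D2:**
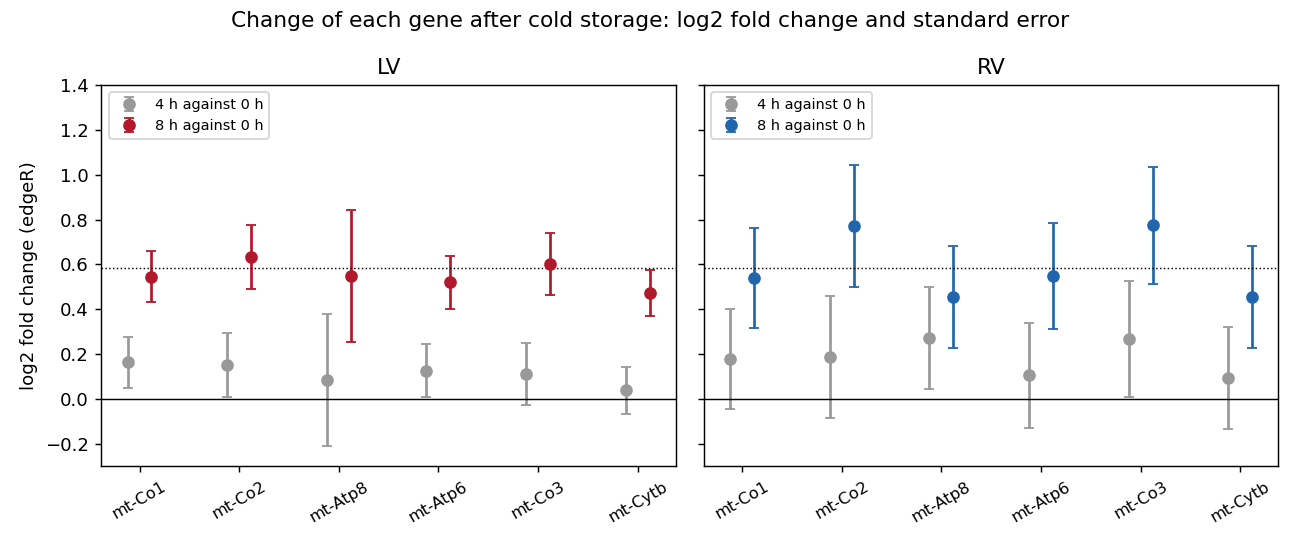
edgeR log2 fold change (y axis) of each gene at 4 h and at 8 h against 0 h, in the LV and the RV; bars give the standard error and the dotted line a fold of 1.5. The 8 h points lie between 0.46 and 0.77, and the 4 h points between 0.04 and 0.27.

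The fold changes at 4 h were smaller. In the LV they ran from 0.04 ± 0.10 for mt-Cytb to 0.16 ± 0.11 for mt-Co1. In the RV they ran from 0.09 ± 0.23 for mt-Cytb to 0.27 ± 0.23 for mt-Atp8. None was called at 4 h against 0 h, while of all genes 2.40% were called higher and 0.398% lower in the LV, and 6.17% higher and 3.91% lower in the RV. From 4 to 8 h the fold changes were 0.38 to 0.49 in the LV and 0.18 to 0.58 in the RV, again with none called by edgeR, where 0% of all genes were called in either ventricle. At an unadjusted p under 0.05, 5 of the 6 genes were higher in that LV comparison and 0 in the RV, and DESeq2 called 0 in both. The share of all genes under that unadjusted p is not given here. The genes were chosen by these same counts, so nothing is read from the 5 of 6. Because the comparisons share the 0 h or 4 h libraries, their values stand side by side and are not independent of each other. In the fit of all 18 libraries the TMM factors were 1.05 to 1.10 in LV libraries at 0 h and 0.930 to 1.02 at 8 h. RV factors in that fit were 1.03 to 1.11 and 0.909 to 0.941. The fits of the 9 libraries of a ventricle set their own factors, which are not given here. Their fold changes at 8 h against 0 h were larger than the ratios of the shares (1.32 in the LV and 1.30 in the RV for the 6 genes together).

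Among the 6 genes the composition held narrow ranges over the 18 libraries. mt-Co1 made up 38.2% to 47.0% of their counts (median 43.6%), mt-Co3 14.4% to 19.5%, mt-Cytb 12.4% to 15.7%, mt-Co2 11.9% to 17.8%, mt-Atp6 10.4% to 11.7% and mt-Atp8 0.595% to 1.22%. mt-Atp6 had the narrowest relative range. mt-Cytb was the one gene whose portion of the 6 was apart at 8 h in both ventricles, and in each it was lower. In the LV it was 14.9%, 15.7% and 14.9% at 0 h and 14.8%, 14.4% and 13.9% at 8 h. RV portions were 14.5%, 14.9% and 15.4% at 0 h and 14.3%, 14.1% and 12.4% at 8 h. At 4 h the mt-Cytb portion was also below the 0 h range in the LV (13.5% to 14.7%), but not in the RV (13.1% to 14.7%). The sum of the portions is fixed, so they cannot move independently.

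**Figure D3:**
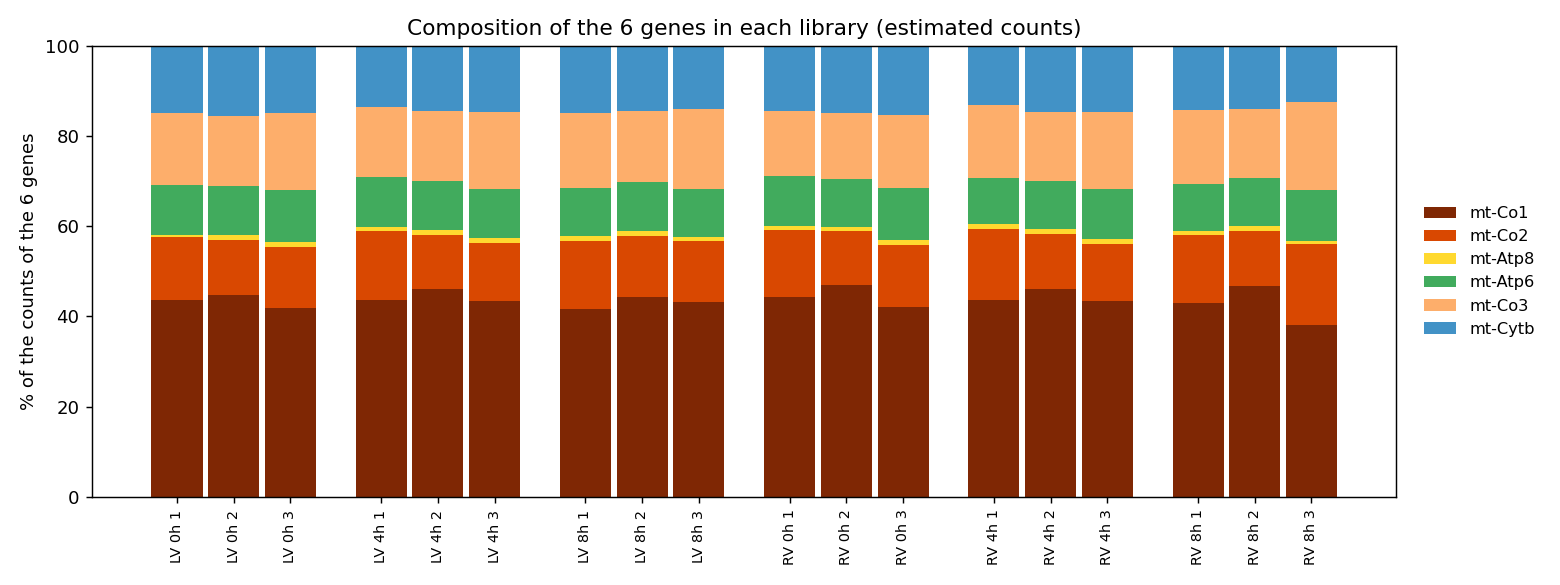
Portion of the counts of the 6 genes (percent, y axis) held by each gene, in each of the 18 libraries (x axis: ventricle, storage time and replicate). mt-Co1 takes 38.2% to 47.0%, and the last RV library (8 h, replicate 3) has the lowest mt-Co1 and the highest mt-Co2 and mt-Co3 portions.

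Compared per length, the genes were closer together. In the deposited TPM (transcripts per 1000000, which divide counts by effective length) the medians over the 18 libraries were 71498 for mt-Co1, 62508 for mt-Co2, 60018 for mt-Co3, 49775 for mt-Atp6, 40965 for mt-Atp8 and 34101 for mt-Cytb. mt-Co1 exceeded mt-Co2 in 16 of 18 libraries, whereas mt-Co2 exceeded mt-Co3 in only 9 of 18, so these neighbors cannot be placed in order. mt-Co3 was above mt-Atp6, and mt-Atp6 above mt-Atp8, in 18 of 18 libraries. mt-Atp8 was above mt-Cytb in 14 of 18. The place of mt-Atp8 rests on its effective length, which Kallisto set between 48.4 and 62.5 bases for a transcript of 204. As counts, mt-Atp8 was 5.42% to 11.3% of mt-Atp6, and the lowest ratios were those of LV replicate 1 at 0 h (5.42%) and RV replicate 3 at 8 h (5.93%).

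The 7 mitochondrially encoded complex I genes come from the same chromosome and, but for mt-Nd6, from the same strand, and they serve as the nearest comparison. Their summed share was 6.86% to 8.22% at 0 h and 8.36% to 9.90% at 8 h in the LV, where the groups did not overlap, and 6.58% to 9.75% and 7.68% to 9.99% in the RV, where they did. None of the 7 was called at 8 h by edgeR in either ventricle. At an unadjusted p under 0.05, 3 were higher in the LV and 1 in the RV, and DESeq2 called 0 in the LV and 1 in the RV. The shares of all genes under that unadjusted p, or called by DESeq2, are not given here, so nothing is read from these counts. With the replicate number as a block, edgeR called mt-Nd3, a core subunit of complex I, higher in the RV at 8 h (log2 fold change 0.78, adjusted p = 0.056, against 0.15 without the block). The log2 fold changes were 0.06 to 0.50 in the LV and 0.09 to 0.74 in the RV, with mt-Nd5, the longest of them, the lowest in both (0.06 ± 0.15 and 0.09 ± 0.29). The 6 genes of complexes III to V had 2.50, 2.23 and 2.43 times the counts of the complex I genes in the LV at 0 h and 2.56, 2.47 and 2.99 times at 8 h. In the RV the ratio was 2.44, 2.22 and 2.33 at 0 h and 2.67, 2.35 and 3.33 at 8 h. The groups overlapped in both ventricles, and the highest ratio of each 8 h group was that of replicate 3. RV replicate 3 at 8 h also had the lowest ratio of mt-Nd5 to mt-Nd1 counts, 0.445, where the 18 libraries reached up to 1.04.

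The division of reads between mt-Co1 and its nuclear copy varied with the library. Gm29216 held 0.402% to 2.69% of all counts, which is more than mt-Atp8 held in any library. As a portion of the counts of the pair, Gm29216 was at 7.05%, 6.95% and 10.6% in the LV at 0 h and at 6.75%, 7.29% and 12.5% at 8 h. In the RV it was at 5.34%, 4.70% and 11.4% at 0 h and at 7.97%, 5.98% and 21.6% at 8 h. Replicate 3 had the highest portion in each of the 6 groups. A read from the shared bases carries no sign of which locus it came from, so the split is an estimate by Kallisto, and whether Gm29216 itself is transcribed was not tested.

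With the counts of Gm29216 added, mt-Co1 took 7.52%, 8.96% and 10.8% of RV counts at 0 h and 11.6%, 11.7% and 12.5% at 8 h. The library with the lowest mt-Co1 of the RV 8 h group became the highest, and the 0 and 8 h groups remained apart. In the LV the sums were 8.04%, 8.59% and 9.34% at 0 h and 10.2%, 11.7% and 12.3% at 8 h. Gm28661, the copy of mt-Co2, reached 0.309% of counts in LV replicate 3 at 4 h, against 2.32% for mt-Co2 there, and was as low as 4.19e-06% in another library. With all copies added, the 6 genes held 25.7%, 24.3% and 28.3% of RV counts at 8 h, and 16.5%, 18.6% and 24.0% at 0 h. The number of genes called at 8 h against 0 h was 2 of 6 in each ventricle with the copies added, as without them.

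**Figure D4:**
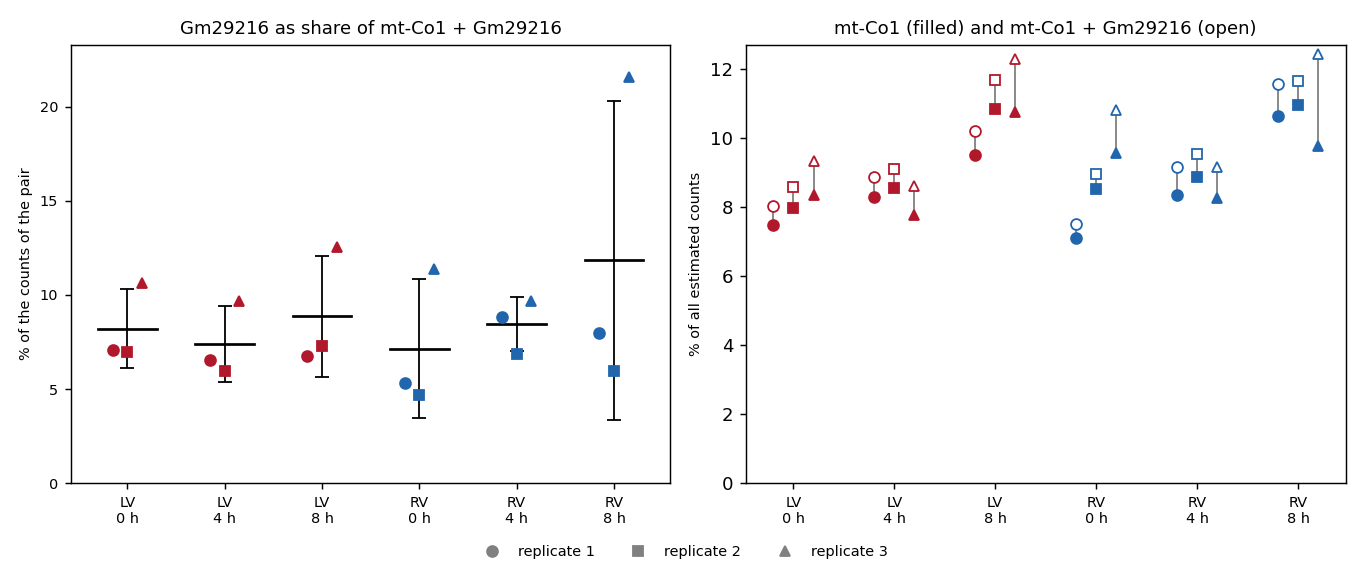
Left: counts of the nuclear copy Gm29216 as percent of the counts of mt-Co1 and Gm29216 together, with mean and SD. Right: percent of all estimated counts on mt-Co1 (filled) and on the pair (open), joined by a line for each library; the longest line is that of RV replicate 3 at 8 h, from 9.77% to 12.5%.

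The partner subunits of the same complexes that are made from nuclear genes did not move in the same way. Of the 44 nuclear-encoded subunits of complexes III, IV and V, 43 passed the filter, and Cox8c, a testis isoform, was at 0 in all libraries. edgeR called 0 of 43 at 4 and at 8 h in each ventricle, DESeq2 called 0 as well, and so did edgeR with the replicate block. At an unadjusted p under 0.05, 3 were higher and 4 lower in the LV at 8 h, and 0 in the RV. The median log2 fold change at 8 h in the LV was 0.06 for complex III (9 genes), 0.19 for complex IV (17 genes) and 0.06 for ATP synthase (17 genes), beside -0.02 for all genes tested. In the RV the medians were -0.19, -0.08 and -0.14, beside -0.07 for all genes. Without RV replicate 2 at 8 h, 5 of the nuclear subunits were called lower in the RV (Uqcrc1, Uqcrc2 and Uqcrfs1 of complex III, Atp5a1 and Atp5b of ATP synthase), and without LV replicate 2 at 8 h 1 was called higher in the LV (Atp5e). These 6 names were taken after their values were seen. The shares of all genes called in those fits are not given here, so nothing is read from the counts. Of 30 assembly factors of complexes III to V, such as Sco1 and Surf1, edgeR and DESeq2 called 0 at each time in each ventricle. At 8 h an unadjusted p under 0.05 was reached by 4 higher and 1 lower in the LV and by 0 in the RV. The share of all genes under that unadjusted p is not given here. Nothing is read from these counts, nor from those of the nuclear subunits at that p.

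Complex IV has paired nuclear isoforms, one of them typical of heart and skeletal muscle and the other of most other tissues. At 8 h in the LV the muscle isoforms Cox6a2, Cox7a1 and Cox8b had log2 fold changes of 0.30 ± 0.15, 0.26 ± 0.15 and 0.39 ± 0.16. Their broadly expressed partners Cox6a1, Cox7a2 and Cox8a had 0.31 ± 0.16, 0.17 ± 0.17 and 0.31 ± 0.15. In the RV all 6 lay between -0.14 and 0.12. Cox4i1, the common form of subunit 4, was at 0.09 ± 0.16 in the LV and -0.15 ± 0.20 in the RV, and Cox4i2, the form linked to low oxygen, at 0.15 ± 0.27 and -0.11 ± 0.23. None of these 8 genes was called at either time. Cox6b2, a minor isoform named after its values were seen, was lower in the LV than in the RV with the replicate block at 0 h (log2 difference -1.30, adjusted p = 0.014 by edgeR) and at 4 h (-0.87, adjusted p = 0.071), and was not called without the block. Cox6b2 reached at most 2.51 CPM.

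As raw sums, the mitochondrial genes had 6.56, 7.14 and 7.19 counts per count of their nuclear partners in the LV at 0 h and 9.79, 10.7 and 11.1 at 8 h. In the RV the ratio was 5.51, 7.12 and 8.18 at 0 h and 12.3, 10.9 and 15.1 at 8 h. The groups at 0 and 8 h did not overlap in either ventricle, and the 4 h values (6.67 to 7.93 in the LV, 6.89 to 8.14 in the RV) overlapped those at 0 h. The nuclear partners together held 2.63% ± 0.14 of LV counts at 0 h and 2.29% ± 0.05 at 8 h (mean ± SD, n = 3). In the RV they held 2.75% ± 0.18 and 1.95% ± 0.23, again with no overlap in either ventricle. In the LV the lower share lay in complex III and ATP synthase, whose sums were each lower at 8 h without overlap. The LV sum of the nuclear complex IV subunits overlapped, with means of 6554 CPM at 0 h and 6627 CPM at 8 h. In the RV the sum of each complex was lower at 8 h without overlap. Both sides of the ratio contribute to it, and the numerator was used to choose the genes. The 13 mitochondrially encoded genes together held 26.0% of LV counts at 0 h and 33.2% at 8 h, and 27.2% and 33.6% in the RV. The share left for all other genes was therefore smaller at 8 h. In the TMM-scaled fits above, the median fold change of each complex was above that of all genes in the LV and below it in the RV.

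**Figure D5:**
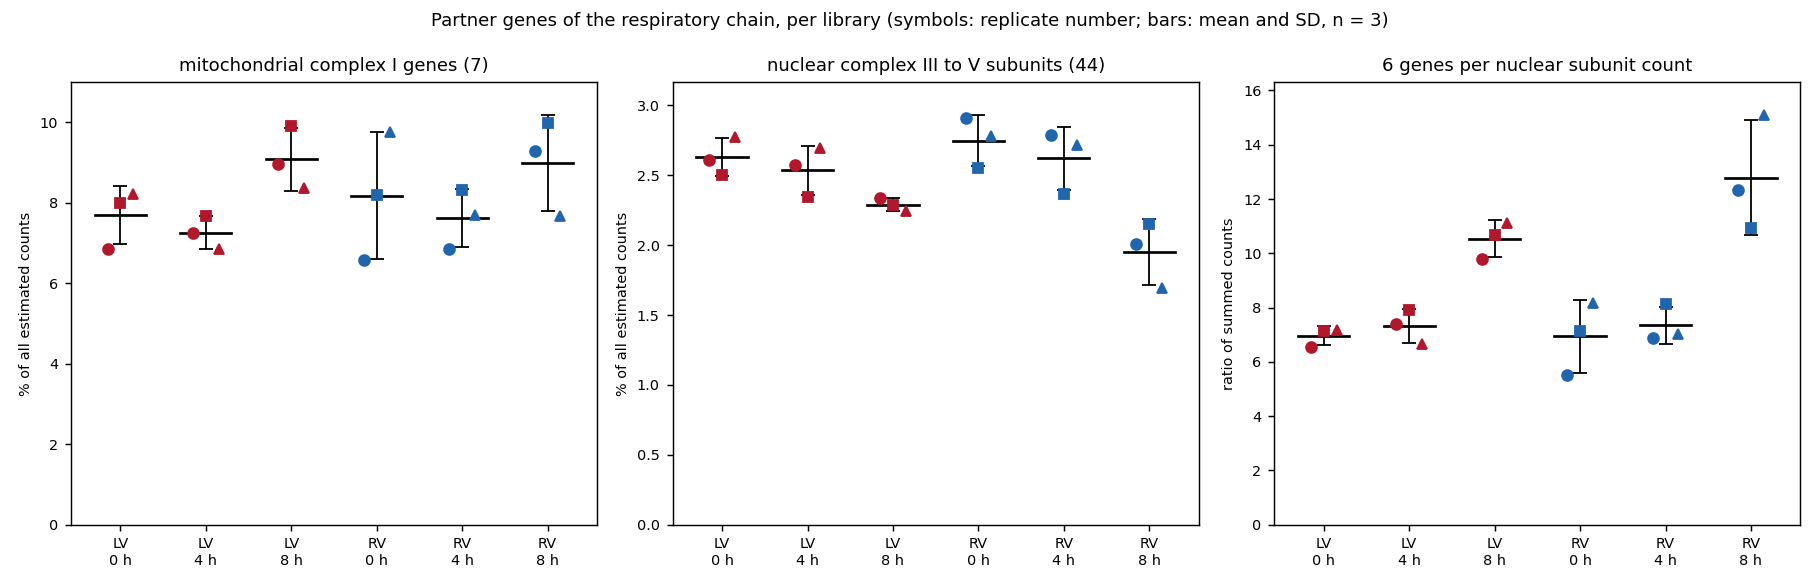
Left: percent of all estimated counts on the 7 mitochondrially encoded complex I genes. Middle: percent on the 44 nuclear-encoded subunits of complexes III to V. Right: counts of the 6 genes per count of the nuclear subunits, where the 8 h libraries lie between 9.79 and 15.1 and the others between 5.51 and 8.18.

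The factors that make, process and stabilize mitochondrial RNA are all nuclear genes. Of 35 such genes, all tested, edgeR called 0 at 4 and at 8 h in both ventricles. At 8 h an unadjusted p under 0.05 was reached by 1 higher and 5 lower in the LV, and by 1 higher and 5 lower in the RV, where DESeq2 called 1 lower and 1 higher, respectively. Below a log2 fold change of 0 were 28 of 35 in the LV and 31 of 35 in the RV, with medians of -0.14 and -0.33. The medians of all genes tested were below 0 as well, at -0.02 and -0.07. The shares of all genes below 0, under that unadjusted p or called by DESeq2 are not given here, so nothing is read from these counts. With the replicate number as a block, edgeR called Pnpt1 higher and Polrmt and Fastkd1 lower in the RV, where that fit called 15.5% of all genes higher and 8.81% lower. These calls moved with the library left out, and without RV replicate 2 at 8 h the fit with no block called 11 of the 35 in the RV. The share of all genes called in that fit is not given here, so nothing is read from the 11.

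Polrmt, the mitochondrial RNA polymerase, had 28.0, 28.5 and 29.1 CPM in the LV at 0 h and 22.9, 23.3 and 18.6 at 8 h. Its log2 fold change was -0.40 ± 0.11 (edgeR adjusted p = 0.091), which stayed under the fold limit. In the RV it had 28.6, 29.5 and 28.1 CPM at 0 h and 19.4, 27.7 and 11.7 at 8 h, a log2 fold change of -0.55 ± 0.24 (adjusted p = 0.16 without and 0.085 with the replicate block). With offsets for transcript length the LV value of Polrmt turned to 0.32, so its direction there depends on that setting. Without RV replicate 3 at 8 h the RV value was -0.28.

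Lrpprc binds and stabilizes mitochondrial messengers together with Slirp. Lrpprc had 232, 198 and 184 CPM in the LV at 0 h and 129, 164 and 82.1 at 8 h, with a log2 fold change of -0.71 ± 0.22 (edgeR adjusted p = 0.11). In the RV it was at -0.60 ± 0.42. Its partner Slirp was at 0.45 ± 0.14 in the LV (adjusted p = 0.11) and 0.28 ± 0.20 in the RV. Tfam, which packages mitochondrial DNA and starts its transcription, was at -0.07 ± 0.09 and -0.12 ± 0.20. Fastkd1, a mitochondrial RNA-binding protein, had -0.59 ± 0.23 in the RV at 8 h (adjusted p = 0.12 without and 0.066 with the block). Mterf1a, related to a termination factor of mitochondrial transcription, had -1.12 in the RV at 4 h (adjusted p = 0.12 without and 0.098 with the block) and reached at most 1.37 CPM. With the block, 8.45% of all genes were called higher and 5.40% lower in the RV at 4 h.

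Pnpt1, a mitochondrial exoribonuclease that is also induced by interferon, separated libraries by replicate number. In the RV at 8 h it had 26.8, 33.3 and 75.3 CPM, against 22.0, 22.6 and 18.9 at 0 h. In the LV at 8 h it had 21.3, 26.5 and 61.8 CPM, against 25.0, 23.0 and 21.5 at 0 h. At 4 h replicate 3 had 50.6 CPM in the LV and 53.0 in the RV, and all other libraries at that time had 23.1 to 23.8. The log2 fold change at 8 h was 1.13 ± 0.44 in the RV (edgeR adjusted p = 0.12 without and 0.084 with the replicate block) and 0.66 ± 0.42 in the LV. Without replicate 3 at 8 h it was 0.51 in the RV and 0.03 in the LV.

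Cell type markers differed between the storage times as well. The sum of the 8 cardiomyocyte markers was 64265 to 74643 CPM in the LV at 0 h and 41955 to 51353 at 8 h, and 63773 to 77098 and 28402 to 53351 in the RV, so both ventricles had lower sums at 8 h without overlap. At 4 h, when the shares of the 6 genes lay inside the 0 h range, the sum was 60508 to 63739 CPM in the LV and 61442 to 62445 in the RV, also below every 0 h library. The lowest of all was RV replicate 3 at 8 h. edgeR called 1 of the 8 lower in the LV at 8 h (Myh6) and 0 in the RV, where 0 had an unadjusted p under 0.05 and DESeq2 called 0. The sums are relative to all counts, so the larger mitochondrial share at 8 h lowers them too, whereas the calls used TMM-scaled counts. In bulk tissue, fewer cardiomyocytes and less cardiomyocyte messenger per cell cannot be told apart. The 5 neutrophil markers summed to 2.02 to 2.57 CPM at 0 h and 10.0 to 19.6 CPM at 8 h in the LV, and to 1.96 to 3.56 CPM and 11.5 to 18.8 CPM in the RV, with Csf3r called higher in both ventricles and S100a8 and S100a9 in the LV. Here too the 4 h sums, 3.80 to 8.12 CPM in the LV and 5.23 to 9.99 in the RV, lay above every 0 h library. The 5 erythroid markers reached 199 CPM in LV replicate 1 at 8 h and 101 CPM in RV replicate 1 at 4 h, and were below 7 CPM in all 0 h libraries, with Hbb-bs and Hbb-bt called higher in the LV at 8 h. The sums of the 5 macrophage, 5 fibroblast, 5 endothelial, 4 mural, 4 atrial and 4 fat markers overlapped between 0 and 8 h in at least 1 ventricle each. The endothelial sum was apart in the RV, with 597 to 895 CPM at 0 h, 307 to 540 at 4 h and 411 to 595 at 8 h. Single markers of these lists were called at 8 h, namely Postn of fibroblasts, higher in the LV (log2 fold change 0.80 ± 0.18) and in the RV (1.21 ± 0.24), Tcf21 of fibroblasts, higher in the RV (0.98 ± 0.27), Adgre1 of macrophages, higher in the RV (0.91 ± 0.22), and Egfl7 of endothelium, lower in the RV (-2.00 ± 0.45). In the RV, where Adgre1 was called, the macrophage sum overlapped, with 196 to 327 CPM at 0 h and 175 to 350 at 8 h. The fibroblast sum overlapped in the LV (509 to 592 and 558 to 846) and in the RV (647 to 673 and 593 to 1106). These single markers therefore do not stand for their lists. No marker of these lists was at 0 in all libraries. The part of cell composition in the share of the 6 genes was not tested.

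Between the ventricles each of the 6 genes differed by less than 1 standard error at each time in the fit without a block. The LV to RV log2 fold changes ran from -0.09 to 0.04 at 0 h, from -0.25 to -0.04 at 4 h and from -0.20 to 0.01 at 8 h. The largest was that of mt-Atp8 at 4 h (-0.25 ± 0.28), followed by mt-Co2 at 8 h (-0.20 ± 0.21). The differences between LV and RV in the change to 8 h ran from -0.16 ± 0.27 for mt-Co3 to 0.10 ± 0.39 for mt-Atp8, and those in the change to 4 h from -0.17 to 0.04. In that fit the standard errors were 0.15 to 0.28 for the ventricle differences, so it cannot tell differences of that size from 0. Standard errors of the fit paired by replicate number are not given here. None of the 6 was called in any of these 5 comparisons by edgeR or DESeq2 or with the replicate number as a block. Without the block none had an unadjusted p under 0.05 by edgeR. Of all genes, 0.159%, 0.0133% and 0.0331% were called at 0, 4 and 8 h and 0% in each difference of change without the block. With the ventricles paired by replicate number at each time these shares were 1.85%, 1.93% and 8.78%, and 0.305% and 5.71% for the differences in the change to 4 and 8 h. Compared by replicate number, the summed share was higher in the RV in 7 of 9 pairs. The LV minus RV difference ran from -2.79 percentage points (replicate 3 at 0 h) to 1.07 (replicate 1 at 0 h), with a mean of -0.617 ± 1.23 (SD).

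Among 8099 nuclear genes with a mean of at least 10 CPM, the 5 whose log2 CPM followed the mean of the 6 genes most closely over the 18 libraries were Fcgr3 (Pearson r = 0.887), Sh3bgrl (0.886), Rnf125 (0.885), Lyn (0.884) and Cd53 (0.869). Fcgr3 is an Fc receptor, Lyn a Src-family kinase and Cd53 a tetraspanin of leukocytes. Rnf125 is a ubiquitin ligase and Sh3bgrl a small adaptor protein. The 18 points share 6 conditions and the same scaling, and the genes were picked as the highest of many, so the coefficients are a description.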

How the data were processed

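RNA-seq libraries of mouse LV and RV were prepared by the authors from total RNA with a directional kit, after mRNA selection by the study's methods. Per the labels and the methods, reads were pseudoaligned with Kallisto to GRCm38 transcripts. The authors deposited estimated counts and TPM with effective lengths per transcript. The estimated counts are not normalized between libraries, and the deposited TPM sum to 1000000 per library.

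Counts of 110203 of 111462 transcripts were summed into 34989 genes by the GENCODE annotation of that build and rounded. The filterByExpr filter, TMM factors and edgeR 4.0.16 quasi-likelihood tests (R 4.3.3) were applied to the 9 libraries of a ventricle for storage times and to all 18 for LV against RV, with Benjamini-Hochberg adjustment over all tested genes. A call is an adjusted p under 0.1 with a fold over 1.5, the study's limits. DESeq2 1.42.0, other scalings and filters, length offsets, copies added and left-out libraries were alternatives. Shares of counts use all counts of a library. Nuclear copies were found with blastn 2.17.0 (95% identity and 95% coverage). The fits were tested on simulated data. Differences between the depths of the libraries, 22552581 to 46236771 counts, leave counting error negligible for the 6 genes.

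The 6 genes and all gene lists were chosen with earlier results of these data known. Besides the 6, the text names Polrmt, Tfam, Lrpprc, Slirp and 8 paralogs of complex IV always, the 2 largest calls in each direction per list, and the 5 nuclear genes most like the 6. Genes called only with the replicate block were named too, and Cox6b2, the called cell type markers and names given beside left-out libraries were taken after their values were seen.

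Replicate numbers were checked for pairing by the correlation of deviations from group means. All 9 same-number LV and RV pairs exceeded 0.1 (0.33 to 0.70), as did all 3 pairs of RV 0 and 4 h (0.11 to 0.27), RV 0 and 8 h (0.16 to 0.28), RV 4 and 8 h (0.33 to 0.49) and LV 4 and 8 h (0.36 to 0.57), but 1 of 3 pairs for LV 0 and 4 h and for LV 0 and 8 h. The numbers were therefore taken to pair samples except between LV 0 h and the stored LV. Tissue was collected at the end of perfusion, so a number shared between storage times is not 1 heart, and the labels do not say what it stands for. The main fits did not use the numbers, and the fits with the replicate block did.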

Additional observations from a re-analysis of the deposited data

Results flagged for a closer look

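In the fit with the replicate block, Pnpt1, the mitochondrial exoribonuclease described above, reached an adjusted p under 0.1. The test was for a difference between the ventricles in the change from 0 to 8 h. The difference, LV minus RV, was -0.4475 on the log2 scale (edgeR adjusted p = 0.012 with the block and 1.00 without it), a smaller change in the LV. This stayed under the fold limit of 1.5, so Pnpt1 was not called. Of all genes, 5.71% were called in this comparison with the block, and Pnpt1 was picked by its value. In CPM, Pnpt1 was lower in the LV than in the RV in 3 of 3 same-number pairs at 8 h (21.3 and 26.8, 26.5 and 33.3, 61.8 and 75.3). At 0 h it was higher in the LV in each pair (25.0 and 22.0, 23.0 and 22.6, 21.5 and 18.9). None of the 6 genes of complexes III to V was singled out.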

How the results depend on the processing

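No direction of a fold change at 8 h against 0 h was turned for any of the 6 genes by any alternative. Their log2 fold changes ran from 0.27 to 0.77 in the LV and from 0.32 to 1.02 in the RV over all alternatives. At 4 h they ran from -0.19 to 0.31 and from -0.04 to 0.52. The replicate block left the calls at 8 h at 2 of 6 in each ventricle. The number called was not stable, and the cause was not tested. In the LV at 8 h it was 1 with length offsets, 0 with all 18 libraries, 1 at an adjusted p under 0.05, 5 with no limit on the fold, 0 with both 8 h libraries of number 3 left out (chosen after seeing the data), and 0 to 4 without each library. In the RV it was 0 with no filter, 0 at an adjusted p under 0.05, 1 without number 3, and 0 to 3 without each library.

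Nuclear subunits called at 8 h were 0 to 1 (LV) and 0 to 5 (RV) without each library. Shares of all genes called in the fits without a library are not given here. For the 35 mitochondrial gene expression factors, LV calls at 8 h were 1 with DESeq2, 1 (Lrpprc) with the replicate block, whose numbers did not pair LV 0 h with LV 8 h (1 of 3 correlations above 0.1), 1 with no limit on the fold and 0 to 1 without each library. RV calls at 4 h were 1 with DESeq2, 1 with the block, 1 with all 18 libraries, 1 without number 3 and 0 to 1 without each library. RV calls at 8 h were 1 with DESeq2, 3 with the block, 1 with all 18 libraries, 1 with no limit on the fold and 0 to 11 without each library. Of the other values of single genes, 32 moved by more than the spread between replicates and 2548 did not. Depth limits none of the 6 genes, since mt-Atp8, the lowest, had at least 44992 counts in every library.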

Other observations

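The 66 histone genes of replication, whose messengers mostly lack poly(A) tails, summed to 188 to 209 CPM in the LV at 0 h and 154 to 207 CPM at 8 h. In the RV they summed to 173 to 257 CPM and 109 to 224 CPM, so the groups overlapped in both ventricles. RV replicate 3 at 8 h, which had the highest share of the 6 genes, had the lowest histone sum of all libraries.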
